A study of Solanum lycopersicum with 2 samples.

Results

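The P69 subtilisin protease cluster is a run of neighbouring tomato genes numbered on chromosome 8 by their identifiers, studied in ripe fruit of wild type plants and of an ALMT9 overexpression line. The cluster was taken as 6 loci, Solyc08g079840, Solyc08g079850, Solyc08g079860, Solyc08g079870, Solyc08g079900 and Solyc08g079910, and all 6 were among the 34725 identifiers of the deposited table. The loci were chosen because Solyc08g079870 had one of the highest differences between both libraries, so that its values describe the choice and test nothing. The wild type (CK) and the ALMT9 over-expression line (OX) were harvested 49 days after flowering from 3 plants per genotype and sequenced as 1 library each. The labels name neither the promoter of the introduced gene nor any pooling of the plants. Every difference below therefore compares 2 libraries, has no replicate check and carries no p-value.

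Subtilisin-like proteases, or subtilases, are serine proteases that plants mostly secrete into the cell wall space. The P69 proteases form a tomato subfamily encoded by closely similar genes in tandem, and some of them were first described as pathogenesis-related proteins that accumulate in infected or salicylate-treated leaves. In tomato, a P69 protease is also known to process secreted cysteine proteases of the defence against pathogens. ALMT9 itself encodes a malate channel of the aluminum-activated malate transporter family. The RefSeq gene table for assembly SLM_r2.1 names 6 genes as P69 by symbol or synonym, all on chromosome 8 and within 9 successive entries. Their symbols are P69A, p69d, LOC108511949, P69B, p69c and p69F. None of the identifiers of the deposited table matched an entry of that table, so which identifier is which P69 gene is not stated here, and the name P69 rests on the description of the cluster rather than on an annotation of these files.

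Levels are RPKM, read numbers scaled to the length of the gene model and to the depth of the library, so they can be compared between genes. Whole reads were recovered from the RPKM values as the smallest numbers the values allow, out of library totals of 19736832 reads in the wild type and 19252026 reads in the overexpression line. Intervals given with ratios are exact (Clopper-Pearson) 95% intervals of those reads. They cover counting error only, and not variation between plants or fruit. Copies made by PCR are not independent molecules, so the intervals can be too narrow even for counting error. The locus entered for ALMT9, Solyc06g072910.2, was at 0.0742 RPKM in wild type fruit and at 20.5 RPKM in overexpression fruit, which has the direction of the label. The 5 loci entered for genes of ripe fruit lay between 554 and 3979 RPKM in wild type fruit and between 657 and 2363 RPKM in overexpression fruit, whereas the 3 loci entered for green leaf tissue reached at most 13.8 and 18.8 RPKM. The ripe fruit loci also differed between the libraries, with a median log2 difference of -0.47. Among them Solyc09g089580.2 was at 3979 and 2011 RPKM and Solyc07g049530.2, the only one past 2-fold, at 648 and 2363 RPKM.

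Solyc08g079870.1 was the most abundant member in both libraries and had by far the highest level in the overexpression library. It was at 1.29 RPKM in wild type fruit and at 133 RPKM in overexpression fruit. In bulk fruit, a change in the number of expressing cells and a change in RNA per cell cannot be told apart. The wild type level lay at percentile 53.3 of all identifiers and the overexpression level at percentile 96.8. The locus thus moved from the middle of the table into its upper part. The RPKM ratio was 103 (counting interval 65.7 to 171), from at least 19 and 1906 reads. The shortest length that gives whole reads for this locus is 746 bp. At 3 times this length, 2238 bp, the reads are 57 and 5718 and the interval is 79.3 to 136. On the log2(RPKM + 1) scale the difference was 5.87, which ranked 2 among the 17287 genes whose mean level was 1 RPKM or more.

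**Figure D1:**
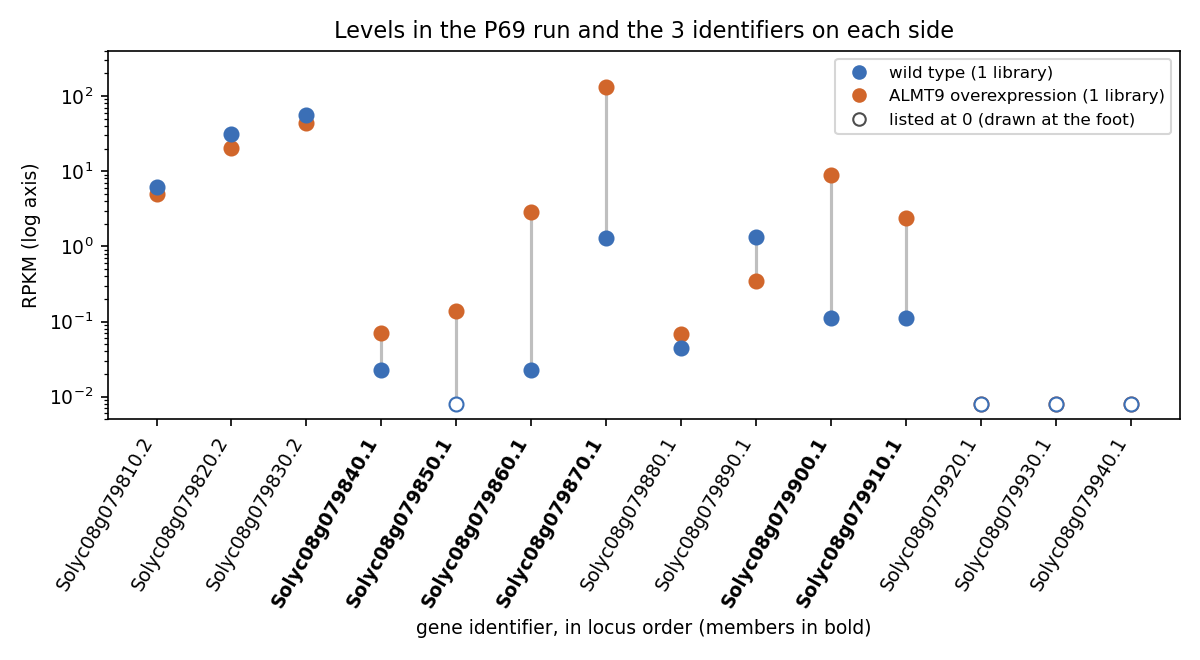
RPKM (log axis) of the 8 loci from Solyc08g079840.1 to Solyc08g079910.1 and of the 3 identifiers on each side, with 1 point for the wild type library and 1 for the overexpression library. Solyc08g079870.1 is at 1.29 and 133 RPKM, 3 other members are above 2 RPKM in the overexpression library only, and Solyc08g079890.1 is the one locus of the run with the lower level in the overexpression library.

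Of the 5 other members, 3 were higher in the overexpression library by more than counting error and 2 were near the detection limit in both. Solyc08g079900.1, the second most abundant member in the overexpression library, was at 0.113 RPKM in wild type fruit and at 8.81 RPKM in overexpression fruit. Its RPKM ratio was 78.1 (counting interval 33.2 to 242), from 5 and 381 reads. Solyc08g079900.1 thus followed Solyc08g079870.1 in direction and, within counting error, in size. Solyc08g079860.1, the direct neighbour before Solyc08g079870.1, was at 0.0226 RPKM in wild type fruit and at 2.85 RPKM in overexpression fruit. Its ratio was 126, from 1 and 123 reads, and the interval of 22.2 to 5021 shows how little 1 read fixes the wild type level. Solyc08g079910.1, the last locus of the run, was at 0.113 RPKM in wild type fruit and at 2.41 RPKM in overexpression fruit. Its ratio of 21.3 was the smallest of the 4, with a counting interval of 8.85 to 67.0 from 5 and 104 reads. The upper end of that interval, 67.0, lies above the lower end for Solyc08g079870.1 at its shortest length, 65.7, and below the 79.3 obtained at 2238 bp.

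The members at the start of the run were almost silent in ripe fruit of both genotypes. Solyc08g079840.1 was at 0.0226 RPKM in wild type fruit and at 0.0694 RPKM in overexpression fruit, which are 1 and 3 reads. Its ratio of 3.08 had a counting interval of 0.247 to 161, so that a difference in either direction was within counting error. Solyc08g079850.1 was listed at 0 in the wild type and was at 0.139 RPKM in the overexpression line. That value is 1 read at the shortest length or 6 reads at the 2244 bp recovered for Solyc08g079840.1, and no ratio is given against 0. A level of 3 reads in these libraries corresponds to 0.0677 RPKM (wild type) and 0.0694 RPKM (overexpression) at the length of Solyc08g079840.1, so a small difference was not detectable at this depth. An overexpression level like that of Solyc08g079860.1, 123 reads, was detectable. A ratio like its 126 is not excluded for Solyc08g079840.1, whose interval reaches 161 because the wild type level rests on 1 read.

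All 6 members had the higher value in the overexpression library, against 53.9 percent of the 24429 genes above 0 in either library. The counting interval of the ratio lay above 1 for 4 of the 6, namely Solyc08g079860.1, Solyc08g079870.1, Solyc08g079900.1 and Solyc08g079910.1, against 25.5 percent of the genes with recovered reads. The same 4 members passed a mean level of 1 RPKM and a 2-fold higher value of RPKM + 1, against 8.09 percent of the 17287 genes that passed this mean. For 3 of the 4 that mean was reached through the overexpression library alone, so their place past 2-fold follows in part from the filter. Their log2 differences were 3.14 for Solyc08g079900.1, 1.91 for Solyc08g079860.1 and 1.62 for Solyc08g079910.1, ranks 78, 382 and 587. On this scale the median of all 6 members was 1.77, beside a median of 0.016 over the 17287 genes. A fold on it is compressed for low genes, and the order of Solyc08g079860.1 and Solyc08g079900.1 is the reverse of the order of their RPKM ratios. Of the 13599 genes with a wild type level no higher than 0.113 RPKM, the highest among the 5 low members, 127 (0.934 percent) reached 1 RPKM in the overexpression library, and 3 of those 5 members were among them. Since the cluster was chosen from this contrast, these shares are given as background and nothing is read from them.

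**Figure D2:**
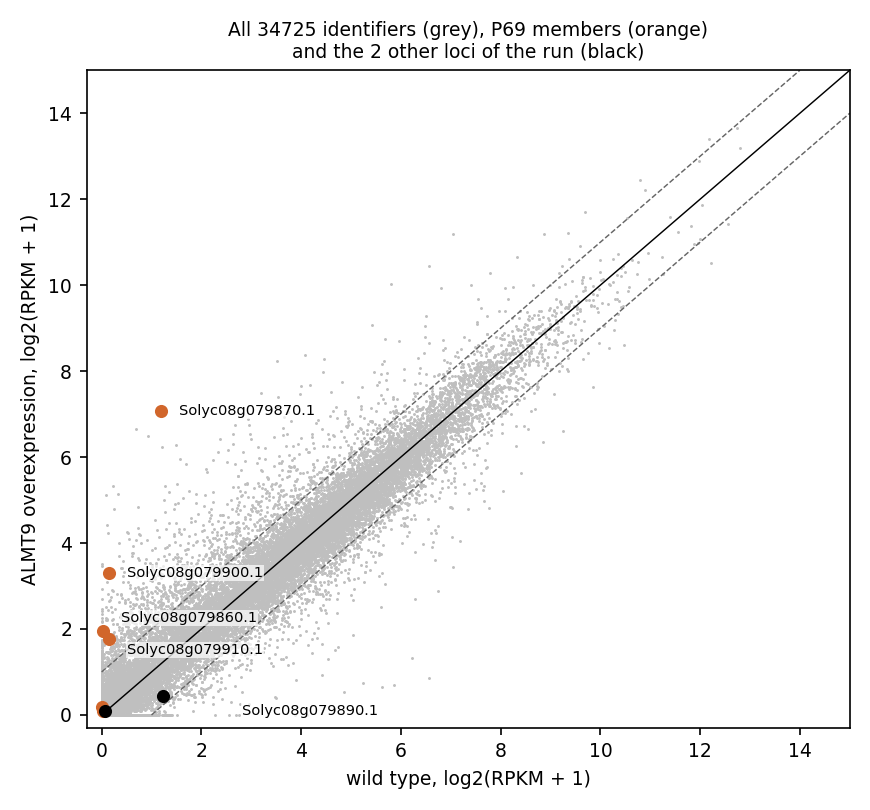
Level of each of the 34725 identifiers in wild type fruit (x axis) and overexpression fruit (y axis), both as log2(RPKM + 1), with equality as a solid line and 2-fold as dashed lines. Solyc08g079870.1, Solyc08g079900.1, Solyc08g079860.1 and Solyc08g079910.1 lie above the upper dashed line, and Solyc08g079890.1 lies below equality.

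The run also holds 2 loci that were not counted as members, of which 1 was lower in the overexpression library and 1 was almost silent in both. Solyc08g079890.1 was at 1.33 RPKM in wild type fruit and at 0.348 RPKM in overexpression fruit. Its RPKM ratio was 0.261 (counting interval 0.137 to 0.465), from 59 and 15 reads. This locus was therefore lower in the overexpression library by more than counting error, as were 22 percent of all genes with recovered reads. Its log2 difference after adding 1 RPKM was -0.79, short of 2-fold, and its mean level was 0.841 RPKM. Solyc08g079880.1 was at 0.0447 RPKM in wild type fruit and at 0.0688 RPKM in overexpression fruit, which are 2 and 3 reads, and its ratio of 1.54 had an interval of 0.176 to 18.4, which leaves its direction within counting error. In locus order the loci higher by more than counting error were thus Solyc08g079860.1 and Solyc08g079870.1, then Solyc08g079900.1 and Solyc08g079910.1, with an almost silent and a lower locus between them.

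The recovered gene model lengths of the run were alike. Of the 8 loci, 6 had a shortest length between 2238 and 2265 bp, a range that held 124 (0.508 percent) of the 24426 genes with recovered reads. The range was set by these 6 loci, and shortest lengths can be fractions of true lengths, so nothing is read from that share. Solyc08g079860.1 and Solyc08g079910.1 both gave 2238 bp, Solyc08g079890.1 gave 2241 bp and Solyc08g079900.1 gave 2247 bp. The shortest lengths of Solyc08g079870.1 and Solyc08g079850.1 were whole fractions of lengths found in the run, 2238 and 2244 bp. No source used here states how reads that match several places were counted. Closely similar genes such as these can exchange reads, and how far the values of single members contain reads of another was not tested.

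The levels of the members relative to Solyc08g079870.1 in the same library differed between the libraries for some loci and not for others. Solyc08g079870.1 was chosen for its difference, so any locus that rose less than it falls in share by construction. A fall in share below therefore describes the choice and is no result about the locus itself. Solyc08g079900.1 was at 8.74 percent of the level of Solyc08g079870.1 in the wild type, with a counting interval of 2.55 to 24.2, and at 6.64 percent in the overexpression line, with an interval of 5.93 to 7.41. Solyc08g079860.1 was at 1.75 percent (0.0422 to 11.0) in the wild type and at 2.15 percent (1.78 to 2.58) in the overexpression line. For both loci the share of the overexpression line lay inside the interval of the wild type. Solyc08g079910.1 was at 8.77 percent (2.56 to 24.3) in the wild type and at 1.82 percent (1.48 to 2.22) in the overexpression line, and these intervals did not overlap. Solyc08g079890.1 stood level with Solyc08g079870.1 in the wild type, at 103 percent (60.8 to 184), and was at 0.262 percent (0.146 to 0.433) in the overexpression line. Solyc08g079840.1 was at 1.75 percent (0.0421 to 11.0) in the wild type and at 0.0523 percent (0.0108 to 0.153) in the overexpression line. Solyc08g079850.1, listed at 0 in the wild type with an upper bound of 42.7 percent, was at 0.105 percent (0.00265 to 0.584). The few wild type reads give wide intervals in which the overexpression shares of both also lie, so a change of share between the libraries was not resolved. Within the overexpression line, the intervals of both lay below the 1.78 to 2.58 percent of Solyc08g079860.1. Solyc08g079880.1 was at 3.47 percent (0.392 to 14.4) and at 0.0518 percent (0.0107 to 0.152), without overlap. In the overexpression line Solyc08g079840.1, Solyc08g079850.1 and Solyc08g079880.1 were at 0.139 RPKM or less, beside 133 RPKM for Solyc08g079870.1. How many reads any locus of the run shared with Solyc08g079870.1 was not tested.

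**Figure D3:**
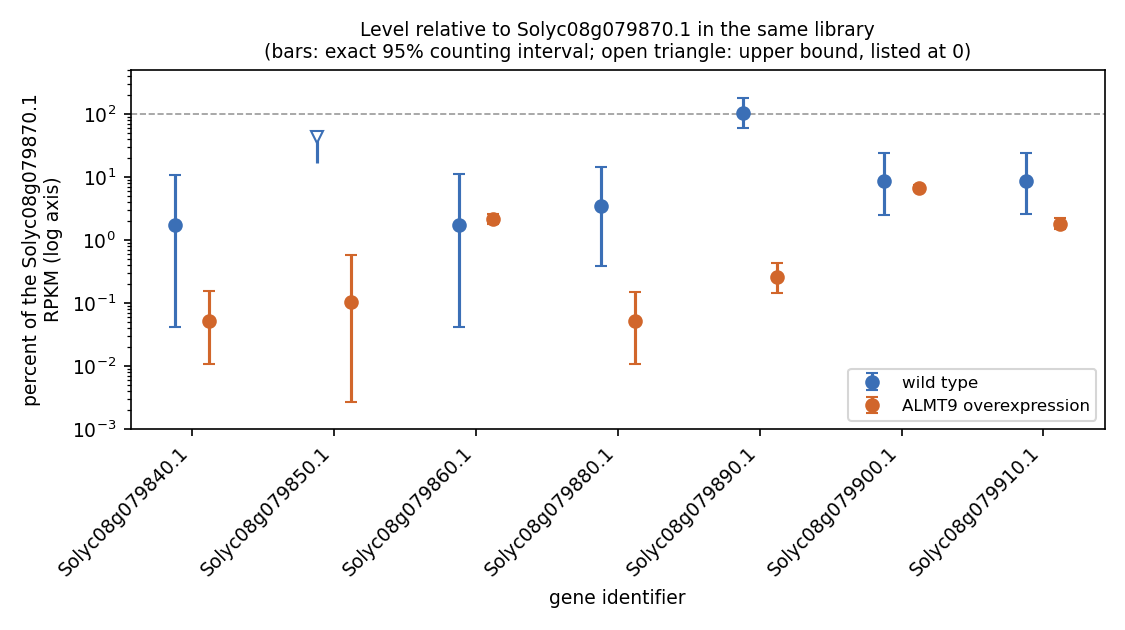
RPKM of the other 7 loci of the run as a percentage of the RPKM of Solyc08g079870.1 in the same library (log axis), with exact 95% counting intervals, for each library. Solyc08g079870.1 was chosen for its difference, so a locus that rose less than it falls in share by construction. The interval of the wild type overlaps that of the overexpression line for Solyc08g079840.1, Solyc08g079850.1, Solyc08g079860.1 and Solyc08g079900.1, whereas Solyc08g079880.1 goes from 3.47 to 0.0518 percent, Solyc08g079910.1 goes from 8.77 to 1.82 percent, and Solyc08g079890.1 goes from 103 to 0.262 percent.

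Summed over the 6 members, the cluster was at 1.56 RPKM in wild type fruit and at 147 RPKM in overexpression fruit. Where each read is counted once, a sum of this kind does not depend on how reads are divided among members of nearly equal length. Whether reads were counted once, or exchanged with loci that are not members, is not known. The ratio of the sums was 94.1 (counting interval 74.3 to 121) when Solyc08g079870.1 and Solyc08g079850.1 are given the lengths of their neighbours. Solyc08g079870.1 made up 82.6 percent of the sum in the wild type and 90.3 percent in the overexpression line. Without it, the other 5 members summed to 0.271 RPKM and 14.3 RPKM, which is 52.7 times as much (30.0 to 103). With both other loci of the run added, the sums were 2.94 and 147 RPKM and the ratio was 50.1. The sum was thus higher in the overexpression library with and without Solyc08g079870.1, although Solyc08g079870.1 dominated it. Unlike the full sum, the sum without Solyc08g079870.1 depends on how reads were divided between that locus and the other members. That division was not tested.

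Directly beside the run the higher level did not continue. Solyc08g079830.2, the identifier just before the run, was at 56.3 RPKM in wild type fruit and at 44.2 RPKM in overexpression fruit, and Solyc08g079820.2 before it was at 31.2 and 20.6 RPKM. The identifiers just after the run, Solyc08g079920.1 and Solyc08g079930.1, were listed at 0 in both libraries. The edges of the run were thus a pair of well expressed loci with lower levels in the overexpression library on one side and silent loci on the other. Among the 20 identifiers on each side, 20 of 40 passed the mean level of 1 RPKM, and of these 2 were 2-fold or more higher and 1 was 2-fold or more lower. The higher ones were Solyc08g079690.2, at 2.23 and 9.35 RPKM, and Solyc08g079760.2, at 0.382 and 2.09 RPKM, both before the run. The lower one was Solyc08g079750.2, at 12.4 and 3.21 RPKM. Unlike the loci of the run, the flanks were counted by the 2-fold rule alone. By their counting intervals, further flanking loci were higher and others lower by more than counting error. The median log2 difference of the 20 flanking loci was -0.15, beside the 0.016 over all genes that passed this mean.

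**Figure D4:**
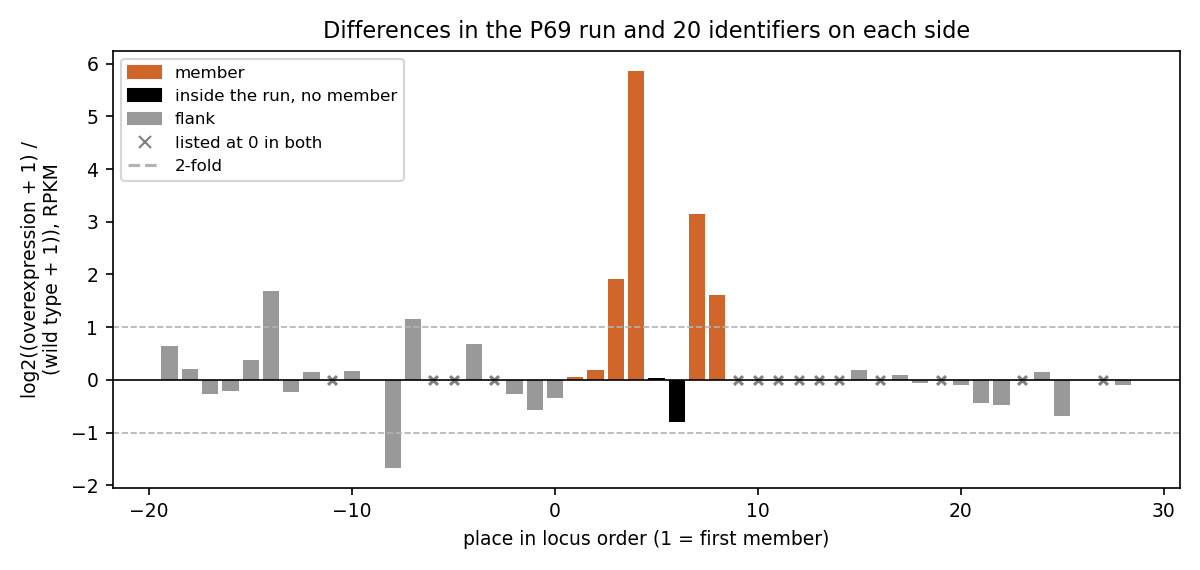
Difference between the libraries as log2((overexpression + 1)/(wild type + 1)) of RPKM for the 8 loci of the run and the 20 identifiers on each side, in locus order, with 2-fold as dashed lines and crosses for identifiers listed at 0 in both libraries. The 4 tall bars are members, from 1.62 to 5.87, and the flanking loci lie between -1.67 and 1.68.

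Higher genes with a higher neighbour were not rare in the whole table. On the numbered chromosomes, 15.4 percent of 17124 genes that passed the mean level of 1 RPKM had a direct neighbour of that kind that was at least 2-fold higher in the overexpression library. For the 1389 genes that were themselves at least 2-fold higher the share was 28.6 percent, and for the 89 genes at least 8-fold higher it was 39.3 percent (35 genes). Solyc08g079870.1 and Solyc08g079900.1, which are direct neighbours once loci below that mean are left out, both count among these 35 genes, and the others lie outside the P69 run. Over the 17287 genes, 0.526 percent were at least 8-fold higher on this scale.

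At a mean level of 5 RPKM or more, the 3 genes whose log2 difference was nearest to that of Solyc08g079870.1 were Solyc06g034370.1, Solyc03g119590.1 and Solyc06g072920.1. They were at 0.613 and 98.9 RPKM, at 0.905 and 89.2 RPKM, and at 0.175 and 39.0 RPKM, wild type first. Their log2 differences were 5.95, 5.57 and 5.09. Likeness over 2 libraries is only likeness of 1 difference. The last of these is numbered next to the locus entered for ALMT9.

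Of the other pathogenesis-related loci, more were higher than lower in the overexpression library. The list was entered from published tomato locus assignments that could not be checked against a table here, and holds 16 loci for PR1 proteins, glucanases, chitinases, other pathogenesis-related proteins and secreted cysteine proteases. Of the 13 that passed the mean level of 1 RPKM, 8 were 2-fold or more higher and 1 was 2-fold or more lower, against 8.09 percent and 4.3 percent of all genes. The median log2 difference of the 13 was 1.37, beside 0.016 over all genes. The list was entered with earlier results of these data known, so these values are background and nothing is read from them. With no filter on the mean, the median of the list was 0.94. Among the 8, Solyc09g007010.1 (0.422 and 18.2 RPKM) and Solyc02g076980.2 passed the mean through the overexpression library alone. Their place past 2-fold thus follows in part from the filter. The loci at least 2-fold higher included Solyc00g174340.1, entered for a PR1 protein, which was at 94.3 RPKM in wild type fruit and at 1389 RPKM in overexpression fruit. The loci entered for the cysteine proteases were at 0.0777 and 2.51 RPKM (Solyc02g076980.2) and at 322 and 1603 RPKM (Solyc02g077040.2). Both were higher in the overexpression library, with ratios of 32.3 (8.58 to 272) and 4.98 (4.86 to 5.10). The remaining 5 loci that passed this mean all had the lower value in the overexpression library. The counting interval of the ratio lay below 1 for Solyc08g080640.1, entered for an osmotin-like protein, at 4764 and 1469 RPKM, and for Solyc10g055800.1, entered for a chitinase, at 459 and 298 RPKM. The intervals of the other 3, Solyc10g055810.1, Solyc01g008620.2 and Solyc01g097280.2, spanned 1. The summed level of the list was nearly equal, 6527 and 6577 RPKM, with Solyc08g080640.1 as its most abundant locus in the wild type. With 1 library per genotype, a difference in the state of the harvested fruit and a difference between the genotypes cannot be told apart, and the ripe fruit loci above differed as well.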

How the data were processed

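Total RNA of ripe fruit was sequenced as 1 library per genotype, per the labels. The authors deposited RPKM values per gene identifier. TopHat, a spliced aligner, is named in the submitters' processing notes. Its version, the counter, the build, the annotation, the strandedness and the fate of multi-mapping reads are not given in any source used here. Columns were matched to samples by their titles.

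Library totals were found as the largest at which gene lengths came out whole (within 0.02) for most of 1091 low genes, 64.2 percent against 31.9 percent at 2 times and 22.8 percent at 3 times these totals. Reads are those at the shortest length of at least 60 bp at which both values are whole, found for 24426 of 24429 genes above 0. On simulated data for this comparison, both totals returned with an error of 0 reads, and of 2903 genes 84.0 percent of read numbers were exact and 99.5 percent exact or a whole fraction.

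Differences are log2((overexpression + 1)/(wild type + 1)), counted at 2-fold where the mean level was 1 RPKM or more. In the simulation this found 100 of 100 genes raised 4-fold, all with at least 100 expected reads, and called 59 of 16936 unchanged genes. Variation between plants could not be measured from 1 library per genotype, so these counts give no error rate for the real libraries. The members and lists were chosen with earlier results of these data known. Named genes were the members, the other loci of the run, the nearest 2 flanking identifiers on each side and flanking loci at least 2-fold apart, the ALMT9 locus, and the 3 genes nearest in difference to Solyc08g079870.1. Loci named from the lists of pathogenesis-related and ripe fruit genes fall outside that rule and were chosen after their values were seen. Lists entered for ripe fruit and green leaf served to check the tissue. Alternatives covered the pseudocount, filter, threshold and 4 scalings. Python 3.11.15 with numpy 2.4.6, scipy 1.17.1, pandas 2.3.3 and matplotlib 3.10.9 was used. Sequences of these genes were not used here.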

Additional observations from a re-analysis of the deposited data

How the results depend on the processing

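No paired analysis was possible because there is only 1 library per genotype, which also leaves no replicate to drop. No member changed direction under the alternatives run, but none of these could have changed one, so nothing is read from it. A pseudocount keeps the sign of a difference, and filters and thresholds leave the values as they are. The 4 scalings multiplied the overexpression values by 0.94 at the lowest, while the smallest ratio given for a member was 3.08. The directions of Solyc08g079840 and Solyc08g079850 remain within counting error. The log2 difference of Solyc08g079870 (5.87) was 6.58 with a pseudocount of 0.1 and 4.45 with one of 5. A mean level of 5 RPKM or more was passed by 12855 genes, of which Solyc08g079870 was the only member. The count of members at least 2-fold higher (4) was 2 with a pseudocount of 5, 1 at a mean level of 5 RPKM or more and 2 at 4-fold. Under these 3 settings the count over all genes (1398) was 667, 860 and 341, the count of flanking loci (2) was 0, 1 and 0, and the percentage of higher genes with a higher neighbour (28.6) was 19.8, 24.8 and 13.6. That percentage was 20.7 with no filter on the mean. The matching share over all genes is given for the main setting only (15.4 percent). The percentages under other settings therefore have no background to be set against. The ratio of summed RPKM (94.1) was 52.7 without Solyc08g079870 and 50.1 with the other loci of the run added. It stayed between 88.5 and 94.1 under the 4 scalings. The median of the pathogenesis-related loci (1.37) was 0.94 with no filter and 1.49 at a mean level of 5 RPKM or more. Counting Solyc08g079870 at the length of its neighbours was chosen after seeing the data, and moved the lower bound of its ratio from 65.7 to 79.3. Depth limits the wild type levels, where 4 of the 6 members rest on 1 to 5 reads and 1 on none.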
